A study of Mus musculus with 4 samples.

Results

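CD137+ cells with PBS and with dexamethasone (DEX) make up 2 of the 4 samples of this mouse study, 1 library per group. Cells were separated with magnetic beads (MACS) by surface CD137 from C57BL/6 adipose tissue, grown in culture, exposed to an adipogenic cocktail and finally kept with PBS or with dexamethasone at 1 µM, a synthetic glucocorticoid. The labels name SAT or VAT as the source without saying which depot was used for CD137+ cells, and they give neither age, number of animals, exposure time nor the contents of the cocktail. All cells of both groups thus passed through the same sort, culture and cocktail, and nothing states that the libraries came from separate animals or cultures. The values are FPKM (fragments scaled by transcript length and by library size) from 1 deposited table of 14208 genes, of which 12304 reached 1 FPKM in the higher library and are called measured here. Differences are log2(FPKM + 1) of DEX minus PBS, which understates the difference of low genes, and every 2-fold or 1.5-fold statement is on that scale. With 1 library a side they have no replicate check and no test was made.

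CD137, encoded by Tnfrsf9, is a receptor of the tumour necrosis factor receptor family known as a surface marker of beige adipocyte precursors. Dexamethasone binds the glucocorticoid receptor, which then moves to the nucleus, raises transcription of genes such as Fkbp5, Tsc22d3 and Per1, and is known for damping inflammatory genes driven by AP-1 and NF-kB. Immediate early genes form another class: growth factors, stress and cytokines switch them on within minutes and without new protein synthesis. Their mRNAs are short-lived, and many of their products, among them phosphatases and an mRNA-decay factor, shut the same signals off again.

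The label of treatment was set beside known glucocorticoid targets, and most of them were not higher under it. Tsc22d3, which encodes the glucocorticoid-induced leucine zipper protein, measured 76.1 FPKM in the PBS library and 38.5 FPKM in the DEX-labelled library. The circadian gene Per1 measured 20.9 and 19.7 FPKM, and Fkbp5, a receptor co-chaperone, 68.1 and 66.2 FPKM. Only the kinase Sgk1 (67.8 and 117 FPKM) and the phosphatase Dusp1 (39.2 and 135 FPKM) were over 1.5-fold higher among the 38 measured genes of a list of 40 glucocorticoid-induced genes, and other stimuli induce both. The list's median difference was -0.06, against 0.05 over all measured genes, and -0.83 with a second column of the same label described below. In that column Dusp1 measured 60.5 FPKM and Sgk1 189 FPKM. The receptor gene Nr3c1 measured 25.7 and 24.2 FPKM. These genes cannot decide whether the label is right. The labels do not say whether the cocktail given to both groups held a glucocorticoid, nor how long DEX was present. The second library is therefore called the DEX-labelled library throughout, and every direction is that of its label.

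The label of cell type could be checked only in part. Tnfrsf9 was not listed in the table. Of 10 beige precursor markers 8 were listed and 6 measured, among them Tbx1 at 1.096 and 1.11 FPKM, while Tmem26 stayed under the minimum at 0.448 and 0.319 FPKM. The progenitor gene Pdgfra measured 164 and 154 FPKM, and the adipocyte regulators Pparg (46.6 and 56.6 FPKM) and Cebpa (98.6 and 83.8 FPKM) were present in both libraries. A second column labelled CD137+ DEX stands in the study's between-cell-type table with different values: the columns lay at least 2-fold apart at 1136 of 12306 genes after their median difference was set to 0. The sheet titles give the PBS library the same library number as the DEX-labelled column used here and another number to that second column. Values of the second column are set beside the main ones below; levels across tables are approximate, and both columns are set against the same PBS library.

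The libraries were close for most genes. Summed FPKM was 431311 with PBS and 449071 in the DEX-labelled library, and the 10 highest genes held 11.8% of it in both. The median log2 difference was 0.05 (quartiles -0.11 and 0.19, SD 0.32 over genes), and 94.3% of measured genes lay within 1.5-fold. Since that median is above 0, most measured genes were higher by some amount. Counts below of list members merely higher or lower must be read against that background. Together 128 genes (1.04%) were at least 2-fold apart. Those at least 2-fold higher in the DEX-labelled library numbered 58 (0.471% of those measured), of which 14 were at least 4-fold higher. The genes at least 2-fold lower numbered 70 (0.569%), of which 5 were at least 4-fold lower. Just inside the limits lay Raet1d (2.33 FPKM with PBS and 5.66 FPKM with DEX) and Cxcr4 (1.84 and 0.418 FPKM), and just outside them Ifit3b (6.89 and 14.7 FPKM) and Ddit4 (65.6 and 32.5 FPKM).

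**Figure D1:**
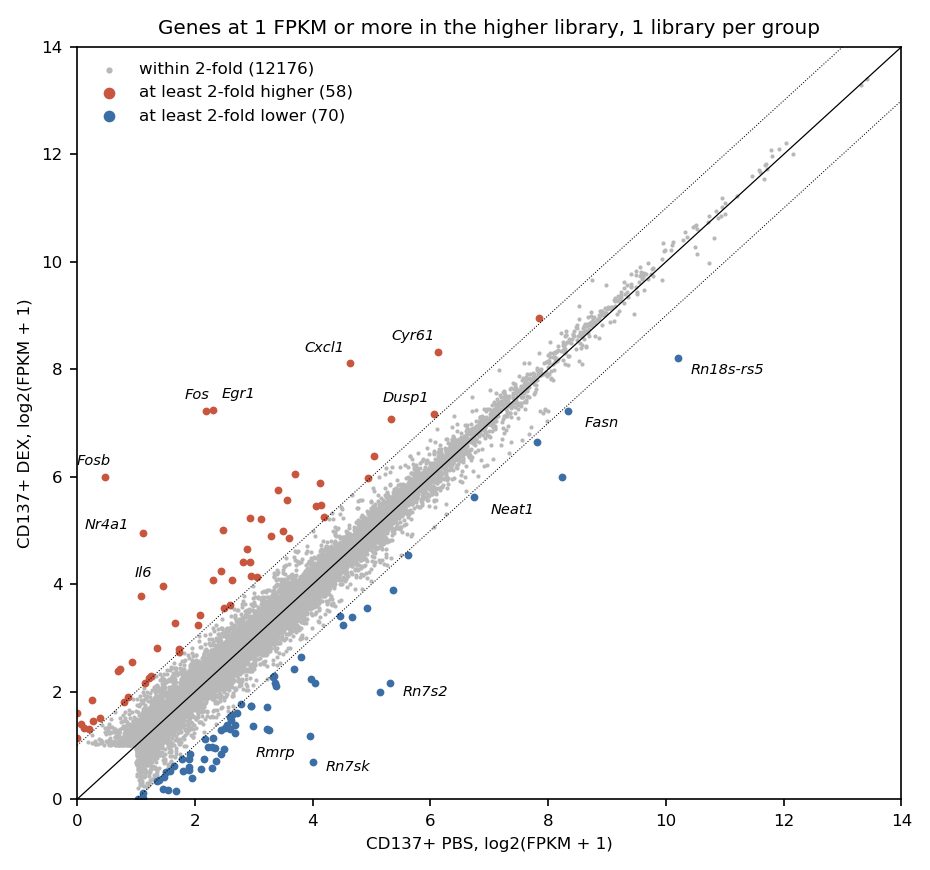
Each point is 1 measured gene of the CD137+ table, with log2(FPKM + 1) in the PBS library on the x axis and in the DEX-labelled library on the y axis. The 58 genes at least 2-fold higher are red and the 70 at least 2-fold lower are blue, beyond the dotted lines. The farthest red points are Fosb, Fos and Egr1, and the farthest blue points are Rn7sk and Rn7s2.

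The genes on either side of the 2-fold limits differed in kind. Of the 58 higher genes 52 were protein coding and 5 long noncoding. Of the 70 lower genes 30 were protein coding, 30 long noncoding and 6 small or structural RNAs. Long noncoding RNAs made up 465 of the measured genes, and 6.45% of them were 2-fold lower and 1.08% higher, against 0.261% and 0.452% of 11506 protein-coding genes. The higher protein-coding genes had short loci. Their median span in the deposited coordinates was 6.24 kb against 32.5 kb for all measured protein-coding genes, and 36 of 52 (69.2%) spanned under 10 kb against 17.2% of all. The lower protein-coding genes had a median of 23.8 kb, with 8 of 30 (26.7%) under 10 kb.

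Promoter sequences of 6 higher genes are printed as examples of the motifs searched. They belong to the highest by difference among named immediate early, chemokine and stress genes past 2-fold whose promoter holds a match. A match in each was thus fixed by the choice. The sequences are those of RefSeq on build GRCm38.p6, 250 bases ending just before the annotated start and given 5′ to 3′ on the strand of the gene. The genes are the AP-1 subunits Fosb (chr7:19310046-19310295, minus strand) and Fos (chr12:85473640-85473889, plus strand), the chemokine Cxcl1 (chr5:90890995-90891244, plus strand), the antiproliferative factor Btg2 (chr1:134079156-134079405, minus strand), and the stress genes Trib3 (chr2:152344061-152344310, minus strand) and Chac1 (chr2:119350992-119351241, plus strand). Capitals mark matches to the motifs searched on either strand: NF-kB in Fosb and Cxcl1, the letters of the TATA box in Fos and, farther from the start, Trib3, CRE in Btg2 and the C/EBP-ATF element in Chac1. The matches in Fosb and Chac1 lie on the other strand, so their printed letters are the reverse complement of the motif.
Fosb: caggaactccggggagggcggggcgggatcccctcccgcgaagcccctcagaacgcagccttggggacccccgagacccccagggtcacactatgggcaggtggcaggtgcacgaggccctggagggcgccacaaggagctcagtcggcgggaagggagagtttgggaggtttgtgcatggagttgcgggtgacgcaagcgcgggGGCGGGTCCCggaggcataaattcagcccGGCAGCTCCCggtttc
Fos: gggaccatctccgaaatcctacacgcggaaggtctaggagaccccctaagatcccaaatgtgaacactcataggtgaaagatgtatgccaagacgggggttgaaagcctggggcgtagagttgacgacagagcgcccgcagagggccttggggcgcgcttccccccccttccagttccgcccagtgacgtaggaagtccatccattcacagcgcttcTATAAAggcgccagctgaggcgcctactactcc
Cxcl1: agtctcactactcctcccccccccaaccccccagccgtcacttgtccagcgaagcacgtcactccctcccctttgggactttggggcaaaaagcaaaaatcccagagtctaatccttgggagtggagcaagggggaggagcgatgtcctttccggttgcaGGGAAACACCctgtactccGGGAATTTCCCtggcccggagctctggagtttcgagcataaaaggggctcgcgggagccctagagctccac
Btg2: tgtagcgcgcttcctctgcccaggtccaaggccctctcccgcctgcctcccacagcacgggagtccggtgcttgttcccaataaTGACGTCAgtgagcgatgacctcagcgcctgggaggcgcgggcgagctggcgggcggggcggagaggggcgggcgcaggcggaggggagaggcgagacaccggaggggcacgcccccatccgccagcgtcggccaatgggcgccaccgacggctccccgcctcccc
Trib3: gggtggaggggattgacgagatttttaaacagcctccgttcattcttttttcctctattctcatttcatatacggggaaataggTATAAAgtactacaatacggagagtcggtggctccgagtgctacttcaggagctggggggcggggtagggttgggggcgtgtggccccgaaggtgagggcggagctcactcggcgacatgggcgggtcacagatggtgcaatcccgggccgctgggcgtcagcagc
Chac1: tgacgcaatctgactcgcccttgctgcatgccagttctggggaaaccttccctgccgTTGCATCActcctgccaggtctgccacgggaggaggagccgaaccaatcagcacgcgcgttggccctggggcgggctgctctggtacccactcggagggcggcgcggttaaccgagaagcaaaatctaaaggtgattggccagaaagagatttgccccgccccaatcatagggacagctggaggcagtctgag

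Such windows were found by symbol for 9394 of 12298 measured symbols, 43 of the 58 higher genes and 41 of the 70 lower genes, and both strands were searched. The cyclic AMP response element (CRE, TGACGTCA) stood in 5 of the 43 promoters of higher genes (11.6%), those of Btg2, Ch25h, Dusp1, Plk2 and Ppp1r15a, against 2.83% of all promoters and 1 of 41 (2.44%) of lower genes. The NF-kB motif (GGGA, any 4 bases, then CC) stood in 17 of 43 (39.5%) against 22.4% of all promoters and 19.5% of those of lower genes. In Cxcl1 it matched 3 times, and GGGAATTTCC at 71 to 62 bases before the start overlaps the match on the other strand 1 base further on. The TATA box (TATAAA) stood in 8 of 43 (18.6%) against 6.23% of all and 9.76% of lower genes, at 33 to 28 bases before the start in Fos but at 166 to 161 bases in Trib3, far from where a TATA box acts. The AP-1 motif (TGANTCA) stood in 4.65% of promoters of higher genes, near the 4.02% of all. The C/EBP-ATF element (TGATGNAA) stood in 4.65%, those of Atf3 and Chac1, against 1.92% of all. The CArG box stood in 4.65% of higher genes, those of Zfp36 and Dusp5, in 7.32% of lower genes and in 1.11% of all. The glucocorticoid element (AGAACA, any 3 bases, then TGT) stood in 0.234% of all promoters and in 0 of the promoters found for higher or lower genes. At so low a share, 0 is the usual outcome in sets of 43 and 41 promoters, so it tells nothing about the receptor. These are matches of letters in short windows, and no binding was measured.

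Immediate early transcription factors had the highest median of all lists in this table. The lists were chosen with earlier results of these data known, so this rank is not an independent result. Of 29 listed by name 25 were measured, all 25 were higher in the DEX-labelled library, 14 by at least 2-fold and 0 were 2-fold lower, with a median difference of 1.09. Their summed level was 322 FPKM with PBS and 1026 FPKM in the DEX-labelled library. Junb and Nr4a3 were not listed.

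Among the 7 measured AP-1 subunits, which pair as dimers on DNA, Fosb (ENSMUSG00000003545, chromosome 7, 19302696 to 19310051, all coordinates mm10) measured 0.392 FPKM in the PBS library and 62.8 FPKM in the DEX-labelled library. Fos (ENSMUSG00000021250, chromosome 12, 85473890 to 85477273) measured 3.54 and 148 FPKM. The CREB-family stress factor Atf3 measured 0.901 and 4.89 FPKM, and Jun, the usual partner of the Fos proteins, 16.7 and 43.3 FPKM. The FOS-type subunits thus ranged widely, since Fosl1 (0.70) and Fosl2 (0.36) and the JUN-type subunit Jund (0.44) had log2 differences under 1. The order of levels differed between the libraries: with PBS Jund (51.6 FPKM) and Fosl2 (29.8 FPKM) stood above Fos and Fosb, and in the DEX-labelled library Fos stood above Jund (70.2 FPKM).

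The 18 other measured factors were zinc finger, nuclear receptor and related proteins, 10 of them 2-fold higher, with a median of 1.07. The zinc finger factor Egr1 (ENSMUSG00000038418, chromosome 18, 34859823 to 34864984) measured 3.95 FPKM with PBS and 149.8 FPKM in the DEX-labelled library. Its relatives Egr2 (6.68 and 20.2 FPKM) and Egr3 (0.154 and 1.47 FPKM) were higher by smaller amounts. The orphan nuclear receptor Nr4a1 measured 1.17 and 29.8 FPKM and its relative Nr4a2 0.818 and 2.75 FPKM. The Krüppel-like factors spread from Klf6 (31.95 and 82.9 FPKM) and Klf2 (6.73 and 16.8 FPKM) to Klf4 (0.74) and Klf10 (0.11), which were under 2-fold. Ier2 (9.63 and 53.01 FPKM), Ier3 (15.6 and 43.1 FPKM) and Btg2 (10.8 and 46.6 FPKM) were past 2-fold. The growth regulator Myc (21.7 and 41.2 FPKM) and Srf (6.99 and 10.3 FPKM), the factor that binds CArG boxes, were not.

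Genes that cut growth factor signals short were split by kind. Of 8 measured dual-specificity phosphatases, which inactivate MAP kinases, 4 were 2-fold higher and 0 lower, with a median of 0.71. Dusp1, which acts in the nucleus, measured 39.2 and 135 FPKM, the ERK phosphatase Dusp6 3.25 and 9.71 FPKM, Dusp10 2.33 and 5.91 FPKM, and Dusp5 0.312 and 1.85 FPKM. In the second column labelled CD137+ DEX Dusp1 was under 2-fold, at 60.5 FPKM. Dusp7 was lower, at 17.5 and 9.94 FPKM. Of 15 adaptors and related inhibitors 2 were 2-fold higher, the polo-like kinase Plk2 (7.68 and 36.2 FPKM) and the receptor tyrosine kinase inhibitor Spry2 (6.04 and 20.2 FPKM), and the median was 0.24. Errfi1, which blocks the EGF receptor, was nearly level at 123 and 133 FPKM.

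Among 13 mRNA decay genes Zfp36, which encodes tristetraprolin and brings AU-rich mRNAs to the deadenylase, stood alone past 2-fold. It measured 11.9 FPKM with PBS and 65.1 FPKM in the DEX-labelled library, and its deposited locus is shared with 1 other gene. The related Zfp36l1 measured 50.4 and 79.8 FPKM, Zfp36l2 79.8 and 91.02 FPKM, and the endonuclease Zc3h12a 21.1 and 28.1 FPKM. The list's median was 0.05, that of all measured genes. Likewise, of 20 serum response and actin-linked genes only Cyr61, a matricellular protein, was past 2-fold (68.7 and 319 FPKM), with a list median of 0.13 (1.58 with the second DEX column). Its relative Ctgf measured 52.4 and 63.2 FPKM, and vinculin, Vcl (34.7 and 27.04 FPKM), and smooth muscle actin, Acta2 (172 and 166 FPKM), were lower or level.

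**Figure D2:**
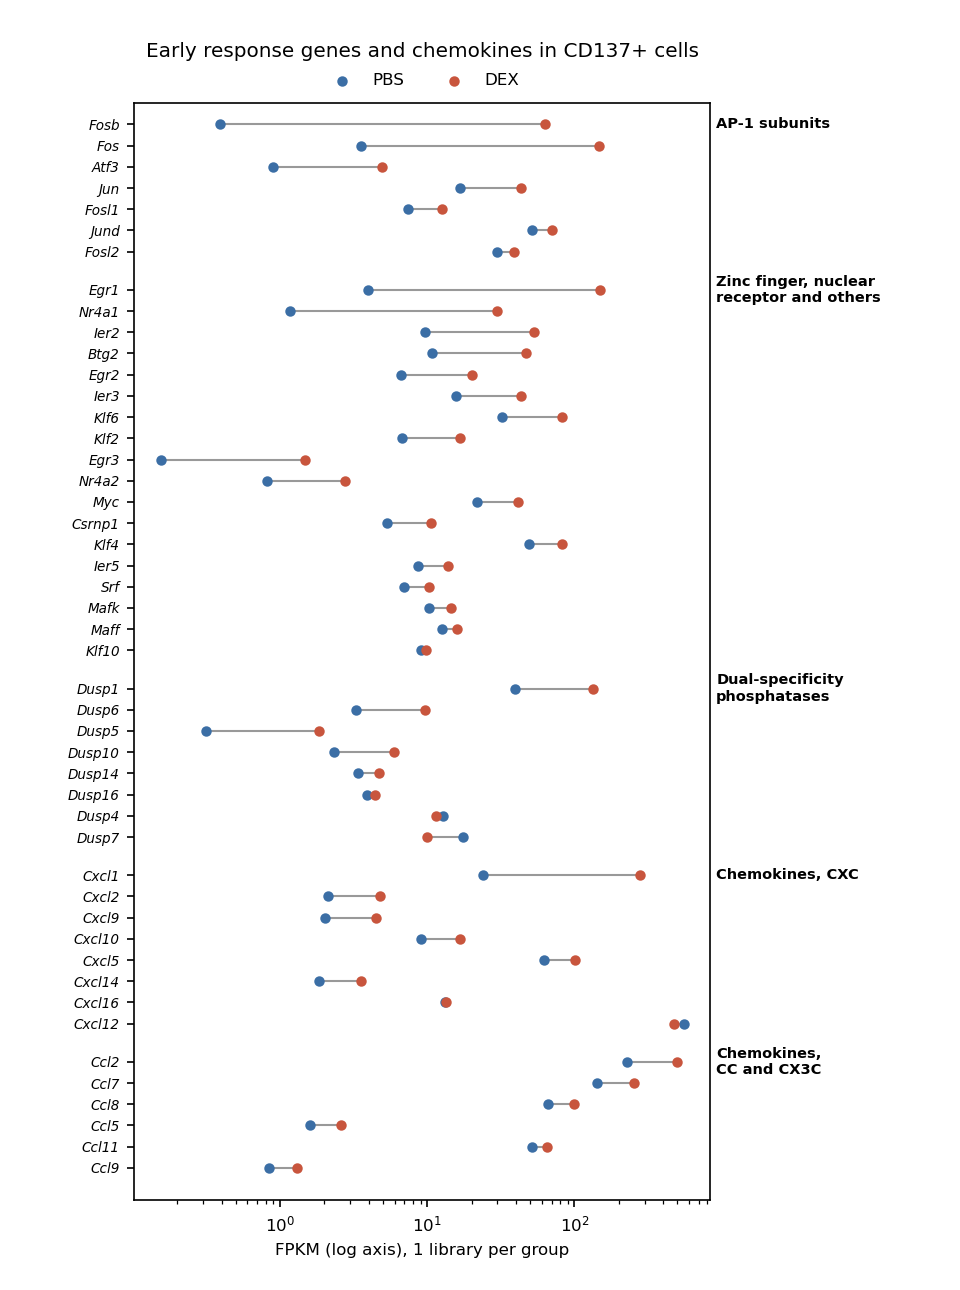
FPKM on a log axis for the measured AP-1 subunits, other immediate early factors, dual-specificity phosphatases and chemokines in CD137+ cells, with PBS in blue and the DEX-labelled library in red, 1 library each. Every AP-1 subunit and other early factor has its red point to the right, from Klf10 (9.06 and 9.83 FPKM) to Fosb (0.392 and 62.8 FPKM), whereas Dusp4, Dusp7 and Cxcl12 have it to the left.

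Chemokines stood next. Of 21 listed by name 14 were measured, 13 of them higher, 2 by at least 2-fold, with a median of 0.68. The neutrophil attractant Cxcl1 (ENSMUSG00000029380, chromosome 5, 90891241 to 90893115) measured 23.8 and 277 FPKM, and its neighbours in function Cxcl2 (2.11 and 4.77 FPKM) and Cxcl5 (62.3 and 102 FPKM) were under 2-fold. The monocyte attractant Ccl2 measured 229 and 496 FPKM, Ccl7 143 and 254 FPKM, and Ccl8 66.1 and 99.6 FPKM. Cxcl12, a homeostatic chemokine and the most abundant of the list with PBS, was the 1 lower member, at 557 and 477 FPKM. Its receptor gene Cxcr4, outside the lists and chosen after its values were seen, measured 1.84 and 0.418 FPKM.

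Of 21 measured cytokines and growth factor ligands 2 were 2-fold higher and 0 lower, with a median of 0.12. Il6, the interleukin that induces the acute phase response, measured 1.76 and 14.7 FPKM, and Gdf15, a stress-induced TGF-beta family hormone, 5.01 and 11.3 FPKM. Further members under 2-fold were Lif (1.64 and 3.63 FPKM), the epidermal growth factor family ligand Ereg (0.387 and 1.51 FPKM), the fibroblast growth factor Fgf7 (26.9 and 46.6 FPKM) and the colony-stimulating factor Csf3 (3.700 and 6.54 FPKM). The receptor genes of Il6 were lower or level, since Il6ra measured 7.42 and 5.65 FPKM and the shared subunit Il6st 168 and 176 FPKM. Of 11 JAK-STAT feedback genes the kinase Pim1 was past 2-fold (10.2 and 30.7 FPKM), and its deposited locus is shared with Gm26885, an antisense gene. The feedback inhibitor Socs3 measured 16.9 and 21.3 FPKM.

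NF-kB genes and prostaglandin genes had single members apart. Of 7 NF-kB inhibitors, the ubiquitin-editing enzyme Tnfaip3 (7.33 and 16.5 FPKM) and the nuclear regulator Nfkbiz (17.4 and 37.1 FPKM) were 2-fold higher and Nfkbia was under it (36.4 and 65.1 FPKM), while the 4 others were lower and the median was -0.10. The 5 subunit genes had a median of 0.08, and the adhesion and survival targets of 0.11, with Icam1 at 23.1 and 18.9 FPKM and Vcam1 at 40.5 and 50.9 FPKM. In prostaglandin synthesis the inducible cyclooxygenase Ptgs2 measured 1.12 and 12.7 FPKM, and the constitutive Ptgs1 21.5 and 28.5 FPKM. The terminal synthase Ptges was lower (33.5 and 28.4 FPKM), and the 8 enzymes had a median of 0.11. Acute phase genes, classic Il6 targets in liver, had a median of -0.00 over 13, with Saa3 at 10919 and 10892 FPKM and Hp at 1483 and 1126 FPKM.

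Genes of the integrated stress response, which runs through phosphorylated eIF2alpha and the factor ATF4, had their 2-fold differences among the effectors. Of 12 measured factors and effectors 10 lay higher (median 0.20) and 3 were 2-fold higher: the pseudokinase Trib3 (4.41 and 18.1 FPKM), the glutathione-degrading enzyme Chac1 (0.623 and 4.23 FPKM) and Ppp1r15a (8.82 and 28.7 FPKM), which helps dephosphorylate eIF2alpha. Atf4 itself measured 83.5 and 139 FPKM and the leucine sensor Sesn2 12.5 and 23.6 FPKM. Ddit4, an inhibitor of mTORC1 that glucocorticoids also induce, stood on the other side at 65.6 and 32.5 FPKM. The locus deposited for Ppp1r15a is shared with 3 other genes.

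The metabolic arm of the same response lay higher by small amounts and with few exceptions. Of 14 amino acid synthesis and transport genes 13 were higher and 0 past 2-fold, with a median of 0.34. The mitochondrial folate enzyme Mthfd2 measured 12.6 and 20.1 FPKM, the serine enzyme Psph 9.99 and 15.1 FPKM, and asparagine synthetase, Asns, 43.9 and 56.4 FPKM. The amino acid carrier Slc38a2 was the exception at 90.1 and 59.6 FPKM. All 20 cytosolic aminoacyl-tRNA synthetases were higher, between 0.02 for Qars and 0.41 for Cars, with a median of 0.22 against 0.05 over all measured genes. Of 19 unfolded protein response genes none passed 2-fold and the median was 0.16. Its chaperone Hspa5 measured 298 and 409.5 FPKM, whereas the sensor Ern1 was lower at 9.91 and 4.79 FPKM. Cytosolic heat shock proteins had a median of 0.07 over 15.

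Inhibitors of differentiation and a BMP feedback gene were higher too. Id1 measured 16.4 and 58.1 FPKM, Id2 11.1 and 28.2 FPKM, and Id3 29.8 and 61.7 FPKM. The 3 encode helix-loop-helix proteins that block other factors from DNA and are direct BMP targets. Smad7, which blocks TGF-beta and BMP receptors, measured 3.12 and 8.399 FPKM, and Smad6 5.62 and 6.895 FPKM. Id1, Id2, Id3 and Smad7 were the 4 past 2-fold of 13 genes, whose median was 0.29. The ligand Bmp6 (2.299 and 3.05 FPKM) and the antagonists Fst (30.7 and 45.6 FPKM) and Grem1 (1.53 and 2.53 FPKM) were under 2-fold. The 5 measured Wnt ligands and antagonists had a median of 0.17, with Sfrp2 level at 278 and 279 FPKM.

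Of the 58 higher genes 40 fell in a list and 18 in none, 6 of those with predicted or clone names. Hes1, a repressor downstream of Notch, measured 6.61 and 36.5 FPKM, and Trib1, a pseudokinase scaffold, 4.56 and 31.1 FPKM. The other 10 were chosen after their values were seen. Among them Ch25h, which makes 25-hydroxycholesterol, measured 3.94 and 15.8 FPKM, the peptide hormone gene Cck 5.15 and 15.9 FPKM, and the GSK3-binding protein Frat2 1.56 and 6.02 FPKM. Phlda1 measured 2.18 and 8.64 FPKM and Adm2, which encodes intermedin, 1.22 and 3.46 FPKM. Apol8 measured 0.195 and 2.601 FPKM, and Trerf1, Otub2, Palm2 and Raet1d had smaller differences. Gadd45a, a growth arrest gene that stands in the lists of cell cycle inhibitors and DNA methylation, measured 6.37 and 24.3 FPKM, while Gadd45b (11.99 and 9.39 FPKM) and the CDK inhibitor Cdkn1a (130.3 and 145 FPKM) were within 1.5-fold.

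Cell division genes lay higher as a group without any member past 2-fold. All 32 mitosis genes were higher, between 0.21 for Foxm1 and 0.94 for Cdc20, with a median of 0.66. Of 30 DNA replication genes 27 were higher, with a median of 0.39. The spindle assembly factor Tpx2 measured 10.6 and 19.5 FPKM, the kinase Cdk1 19.4 and 30.6 FPKM, topoisomerase Top2a 13.97 and 25.03 FPKM, and the helicase subunit Mcm5 5.39 and 9.73 FPKM. Their summed level over all 62 genes was 509.6 FPKM with PBS and 774 FPKM in the DEX-labelled library. The 3 lower replication genes were the origin subunit Orc6 (16.7 and 15.2 FPKM), the licensing factor Cdt1 (3.43 and 3.18 FPKM) and the flap nuclease Fen1 (4.73 and 4.73 FPKM).

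Interferon-stimulated genes were also higher as a group, and with the second column they lay in the opposite direction. Of 39 measured members 35 were higher and only Isg15 passed 2-fold (65.9 and 144 FPKM). Their median was 0.56, but with the second column labelled CD137+ DEX it was -2.46. In the main table the antiviral gene Ifit3 measured 39.6 and 71.2 FPKM, the oligoadenylate synthetase Oas1a 9.55 and 18.3 FPKM, and the sensor Dhx58 10.4 and 19.02 FPKM. The signal transducer Stat2 was lower at 37.1 and 24.1 FPKM. Reads of Ifit3 and its near-identical copy Ifit3b may be split, so both are uncertain. Genes of MHC class I presentation had a median of 0.23 over 16, with the immunoproteasome subunits Psmb9 (4.47 and 8.09 FPKM) and Psmb8 (19.8 and 32.3 FPKM) highest and B2m at 1279 and 1504 FPKM. With the second column that median was -1.69.

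Among the pathways listed, adipocyte and lipid synthesis genes lay on the lower side. Of 49 measured adipocyte genes 34 were lower and 2 past 2-fold, with a median of -0.19, and of 29 fatty acid and triglyceride synthesis genes 24 were lower and 1 past 2-fold, with a median of -0.34. In bulk RNA, fewer adipocytes and less mRNA per adipocyte cannot be told apart. All 12 markers of mature adipocytes were lower, with a median of -0.60 and a summed level of 3625 FPKM with PBS and 2740.2 FPKM in the DEX-labelled library, and their part in the differences of the lipid genes was not tested.

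The transcription factors of the adipocyte programme differed in the size of their differences. Pparg (0.27), Cebpa (-0.23) and Cebpb (0.19) differed by under 0.3 on the log2 scale. With the second DEX column Pparg was at -1.78 and Cebpa at -2.83. The glucose-sensing factor Mlxipl (ChREBP) was past 2-fold lower, at 21.1 and 9.58 FPKM, and Srebf1, which drives lipid synthesis under insulin, measured 115 and 78.4 FPKM. Of 19 measured cytosolic enzymes of fatty acid synthesis 16 were lower, with a median of -0.41. Fatty acid synthase, Fasn, measured 324 and 149 FPKM, the carboxylase Acacb 4.58 and 3.06 FPKM, and the citrate lyase Acly 233 and 148 FPKM. The desaturase Scd1 measured 1699 and 1008 FPKM and malic enzyme, Me1, 208 and 120.2 FPKM. The nuclear protein Thrsp measured 250.4 and 129.8 FPKM. The desaturases Fads1 (39.2 and 41.6 FPKM) and Fads2 (33.4 and 35.5 FPKM) and the elongase Elovl5 (35.4 and 37.02 FPKM) were the 3 that were not lower. In the glycerolipid branch Gpd1, which supplies glycerol phosphate, measured 160.0 and 86.1 FPKM, and the phosphatidate phosphatase Lpin1 18.04 and 10.5 FPKM.

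Of 14 lipid droplet proteins and lipases 11 were lower, with a median of -0.30. Pnpla3, an SREBP-1c target, was past 2-fold lower (3.66 and 0.9701 FPKM), the main triglyceride lipase Pnpla2 measured 186 and 102 FPKM, and the hormone-sensitive lipase Lipe 66.5 and 42.3 FPKM. The droplet coats divided: Plin1, found on adipocyte droplets, measured 104 and 68.1 FPKM, and Plin2, found in many cells, 194 and 200.3 FPKM. Of 11 uptake and carrier genes 10 were lower (median -0.34), with Fabp4 at 1814 and 1389 FPKM and Lpl at 978 and 812 FPKM. The adipokines were spread around a median of -0.06, from the complement protease Cfd (37.5 and 19.6 FPKM) and Adipoq (145 and 95.7 FPKM) to Angptl4 (75.97 and 91.02 FPKM), an inhibitor of lipoprotein lipase.

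**Figure D3:**
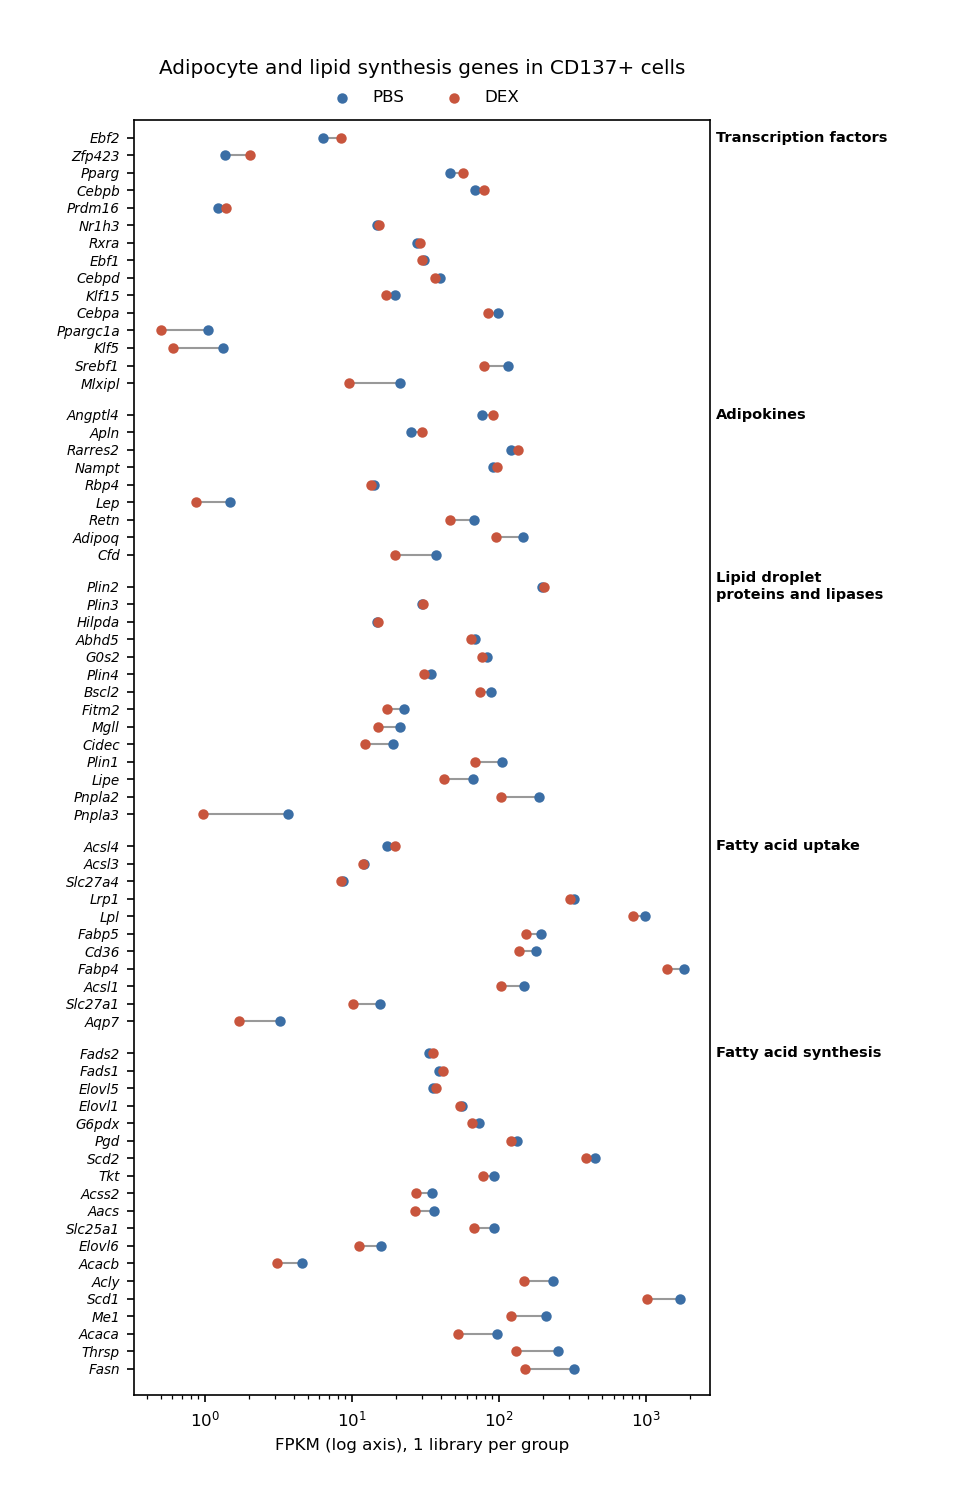
FPKM on a log axis for the measured adipocyte and fatty acid synthesis genes in CD137+ cells, PBS in blue and the DEX-labelled library in red, 1 library each, sorted by difference within each group. Most red points lie to the left, as for Pnpla3 (3.66 and 0.970 FPKM) and Fasn (324 and 149 FPKM), while Pparg, Ebf2 and Angptl4 have the red point to the right.

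Insulin and glucose genes had a median of -0.02 over 22, with 0 past 2-fold, but single members stood apart. The insulin-regulated glucose transporter Slc2a4 measured 25.3 and 14.1 FPKM, while the ubiquitous transporter Slc2a1 measured 30.7 and 45.4 FPKM. The receptor substrate Irs2 was higher (6.16 and 12.8 FPKM) and Irs1 level (3.25 and 3.22 FPKM). Of 26 glycolysis and hypoxia genes 23 were higher, with a median of 0.24 (0.19 with the median of all genes set to 0). Among them was the lactate carrier Slc16a3 (46.6 and 73.8 FPKM). The 10 measured thermogenic and beige genes had a median of -0.08, with the beta-3 adrenergic receptor Adrb3 at 19.2 and 11.6 FPKM, and Ucp1, Cidea and Dio2 not listed. Cholesterol synthesis genes had a median of -0.10 over 25, led by Hmgcs1 (91.1 and 64.1 FPKM), and fatty acid oxidation genes of -0.05 over 26.

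Structural RNAs were the lowest group. Of 19 listed by name 6 were measured, and all 6 were at least 2-fold lower, with a median of -2.97 and a summed level of 1292 FPKM with PBS and 306 FPKM in the DEX-labelled library. The 7SK RNA, Rn7sk (ENSMUSG00000065037, chromosome 9, 78175303 to 78175633), which holds the elongation factor P-TEFb inactive, measured 15.01 and 0.609 FPKM. The RNA of the signal recognition particle measured 34.4 and 2.97 FPKM at Rn7s1 and 38.8 and 3.46 FPKM at Rn7s2. The RNAs of RNase MRP, Rmrp (14.4 and 1.26 FPKM), and of RNase P, Rpph1 (8.57 and 1.44 FPKM), trim ribosomal and transfer RNA. The ribosomal RNA sequence Rn18s-rs5 measured 1181 and 297 FPKM, and Gm42418, which has the same deposited locus, 299 and 63.01 FPKM. Near-identical copies make Rn7s1, Rn7s2 and Rn18s-rs5 uncertain, and Rmrp shares its locus with another gene. The part of library preparation in the differences of structural RNAs was not tested, so their FPKM need not give their levels in the cells. All 77 cytosolic ribosomal protein genes were higher by 0.06 (Rpl14) to 0.24 (Rps24), with a median of 0.13 against 0.05 over all measured genes. Ribosome biogenesis genes had a median of 0.06.

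Long noncoding RNAs past 2-fold lower included hosts of small nucleolar RNAs. Snhg4 measured 14.6 and 3.73 FPKM, with 3 other genes in its deposited locus, and Snhg20 8.31 and 2.28 FPKM. Other hosts in the list of nuclear long noncoding RNAs were not lower to that extent: Gas5 measured 204 and 179 FPKM and Snhg1 43.7 and 53.8 FPKM. Neat1, the scaffold of paraspeckles, measured 105 and 48.1 FPKM, and its neighbour Malat1 436 and 505 FPKM. The host of a muscle and fibroblast microRNA cluster, Dnm3os, measured 29.4 and 10.8 FPKM, the microRNA-155 host Mir155hg 5.04 and 1.47 FPKM, and Gt(ROSA)26Sor 11.9 and 4.37 FPKM. Dnm3os and Gt(ROSA)26Sor overlap other genes, and strand was not given for the counting, so their values may hold reads of those genes. Coding genes named on the lower side were Zfc3h1 (40.2 and 13.8 FPKM), which takes part in nuclear RNA decay, Spaca6 and Lars2. Spaca6, a sperm membrane protein, measured 15.5 and 3.49 FPKM, and the mitochondrial leucyl-tRNA synthetase gene Lars2 24.4 and 9.47 FPKM. Lars2 and the ribosomal RNA sequence Rn18s-rs5 had the same rank order over all deposited columns, those of PDGFRα+ cells described below included. Lars2 ranged from 41.0 FPKM with PDGFRα+ PBS to 6.68 FPKM in the second PDGFRα+ DEX column, and Rn18s-rs5 from 2086 to 167 FPKM. The part of ribosomal RNA reads in the Lars2 values was not tested, so they need not give its mRNA level.

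Markers of other cells were low apart from mural ones such as Acta2 (172 and 166 FPKM), and several groups were lower in the DEX-labelled library. Of 12 measured endothelial markers 11 were lower and 3 past 2-fold (median -0.69, or -0.30 with a pseudocount of 5 FPKM), with a summed level of 54.8 and 34.0 FPKM. Endomucin, Emcn, measured 4.42 and 0.785 FPKM, the junction genes Pecam1 5.12 and 1.78 FPKM and Cdh5 5.07 and 1.89 FPKM, while the receptor genes Tek (3.23 and 3.29 FPKM), Kdr (1.25 and 1.22 FPKM) and Eng (13.8 and 13.8 FPKM) were level. Lower vascular genes outside the list were the placental growth factor Pgf (6.89 and 1.56 FPKM) and, chosen after their values were seen, Angpt2 (6.71 and 2.33 FPKM), Cd93 (2.72 and 0.508 FPKM) and Pdgfb (2.48 and 0.442 FPKM). Of 4 measured keratins in the mesothelial and epithelial list Krt8 was past 2-fold lower (4.04 and 0.925 FPKM), and the median of -0.93 was -0.32 with a pseudocount of 5 FPKM and turned to 1.37 with the second DEX column. Mural markers had a median of -0.28 over 10 and skeletal muscle markers of -0.55 over 5 (-0.22 with a pseudocount of 5 FPKM), with Acta1 at 5.53 and 2.05 FPKM in a deposited locus that holds 66 other genes. The summed mural level was 281 and 277 FPKM, that of muscle markers 15.4 and 7.98 FPKM and that of keratins 12.2 and 7.43 FPKM. Macrophage markers were measured in 4 of 15 cases, with a summed level of 14.8 and 13.5 FPKM, and none of 12 lymphocyte and 5 erythroid markers were listed. The part of these cells in the differences above was not tested.

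Most other lists lay near the median of all genes. Collagens lay further off, with a median of -0.13 over 20, below the lower quartile of all measured genes (-0.11), and 15 of them were lower. With the second DEX column their median was -0.81. Col3a1 measured 4579 and 4108 FPKM and Col6a3 382 and 274 FPKM. Matrix proteases and inhibitors had a median of 0.04 over 26, with Timp1 highest at 366 and 582 FPKM, and proteoglycans of -0.04 over 24, with the hyaluronan synthase Has2 at 1.52 and 3.300 FPKM. TEAD and YAP pathway genes had a median of 0.01 over 19, with Tead1, which the study's title names, at 28.3 and 23.6 FPKM and Yap1 at 48.7 and 46.97 FPKM. In the second column labelled CD137+ DEX Tead1 measured 42.6 FPKM, above PBS. DNA methylation genes had a median of -0.06 over 15. Apart from Gadd45a, the largest differences there were those of Tet2 (5.26 and 8.39 FPKM) and Uhrf1 (4.36 and 6.93 FPKM). Nuclear-encoded oxidative phosphorylation genes lay between -0.19 (Ndufa9) and 0.27 (Ndufa1) around a median of -0.01 over 46, and the 13 mitochondrially encoded ones had a median of 0.12. Clock genes had a median of -0.06 over 17, with Nfil3 (19.2 and 38.9 FPKM) and Cry1 (9.07 and 4.99 FPKM) at the ends.

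Further lists were described in the same way. Complement genes had a median of -0.05 over 14, with C3 at 698 and 522 FPKM. The insulin-like growth factor axis had a median of -0.06 over 12, where the stanniocalcins Stc1 (2.098 and 4.46 FPKM) and Stc2 (6.55 and 10.6 FPKM), inhibitors of the protease Pappa, were highest. Antioxidant genes had a median of 0.04 over 25, from Txnip (76.9 and 54.1 FPKM), which binds thioredoxin, to Nqo1 (9.33 and 12.4 FPKM). Hox genes, which keep a cell's position along the body axis, had a median of -0.07 over 22, with Hoxa9 lowest (9.48 and 5.25 FPKM). Histone genes had a median of 0.27 over 14, and Hist1h1d, a linker histone with close relatives, was past 2-fold higher (0.0488 and 1.62 FPKM). Adipose progenitor markers had a median of -0.09 over 13, from Dlk1 (8.62 and 6.44 FPKM) to Ly6a (984 and 1305 FPKM), and Schwann and neural markers of 0.16 over 5.

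**Figure D4:**
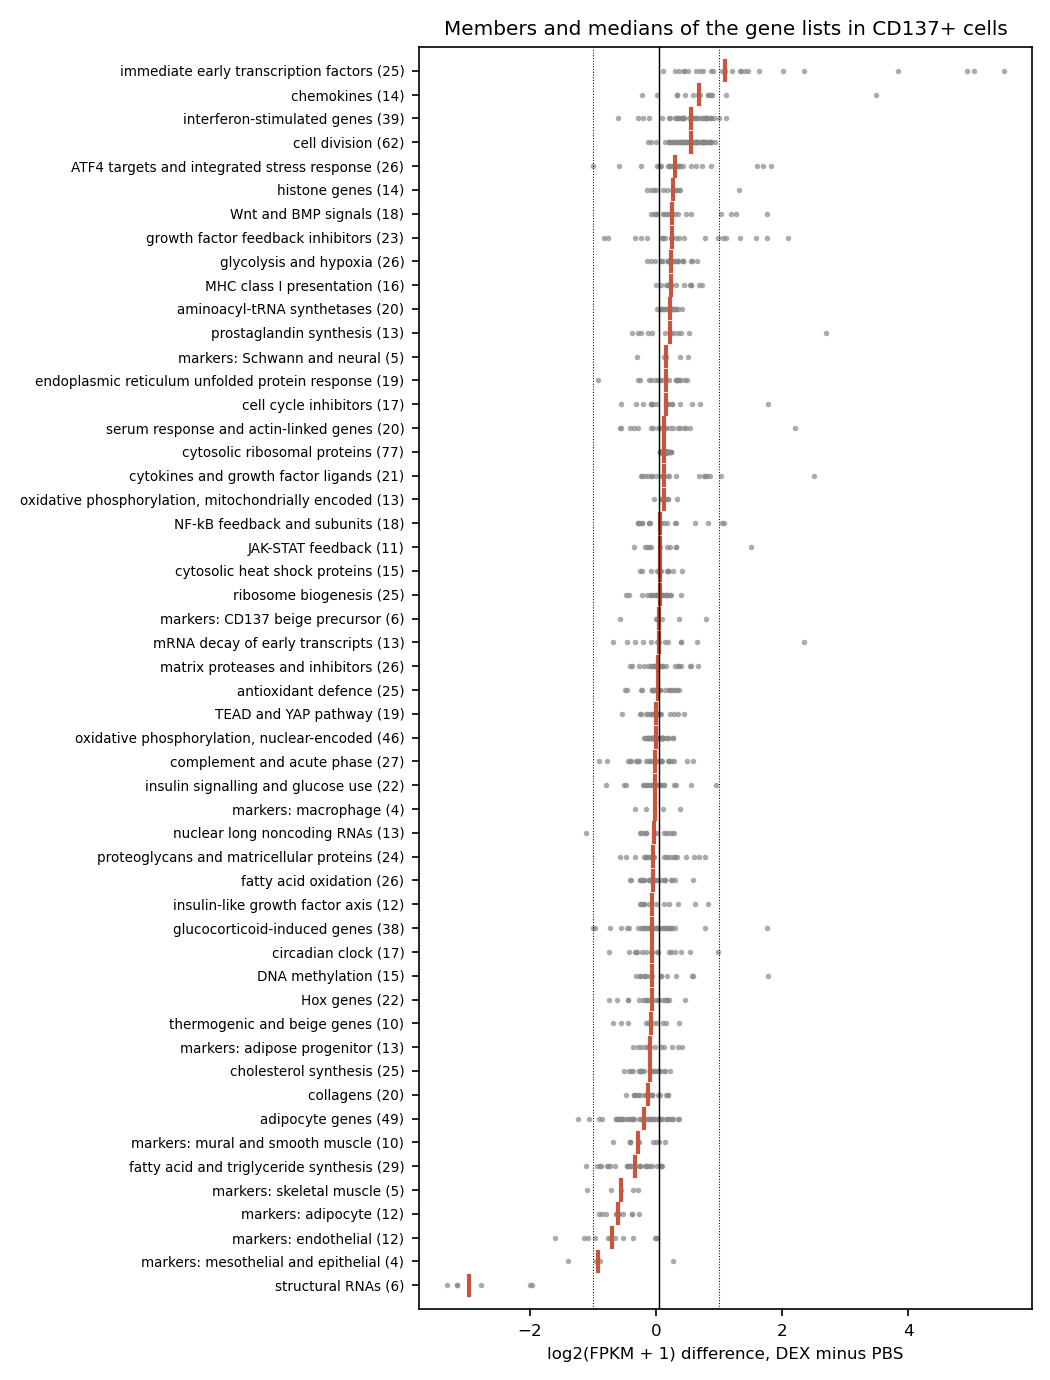
Each grey point is the log2(FPKM + 1) difference of 1 measured member, DEX-labelled library minus PBS, and each red bar is the median of a list, with the number of measured members in brackets. The solid line is the median of all measured genes (0.05) and the dotted lines are 2-fold. Immediate early factors (1.09) and chemokines (0.68) stand at the top and structural RNAs (-2.97) at the bottom.

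The second column labelled CD137+ DEX gave the following FPKM for the leading genes as deposited, set beside the same PBS library and across tables. Fosb measured 59.7 FPKM, Fos 112, Egr1 104 and Nr4a1 33.4 FPKM there, all above PBS. After the column was multiplied by 0.903, which sets its median difference to 0 and underlies the counts and medians below, Egr1 was at 94.1 FPKM against 149.8 FPKM in the main column. Cxcl1 (132 FPKM) and Trib1 (12.1 FPKM) were lower and Ptgs2 (73.3 FPKM) higher than in the main column, and all 3 stood above PBS. The adipocyte genes were far from the main column, with Adipoq at 0.149 FPKM and Pparg at 14.2 FPKM. Rn7sk measured 4.39 FPKM, below PBS. There 592 genes lay 2-fold or more above PBS (4.79% of 12352) and 872 below it (7.06%). Medians there were 1.24 for immediate early factors, 1.16 for cell division genes and -1.27 for fatty acid and triglyceride synthesis genes. The order of lists was not that of the main column, since serum response and actin-linked genes had a median of 1.58, above the early factors, and cytokines and growth factors of 1.09. Chemokines had a median of 0.38 and complement and acute phase genes of -2.13.

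The PDGFRα+ cells of the same study, sorted for another progenitor receptor, have their own table and share no library with the CD137+ one. In it 2049 genes (15.5% of 13181) were 2-fold higher and 1016 (7.71%) lower in the library labelled DEX. Of the 58 genes higher in CD137+ cells 52 were measured there, 15 were higher (28.8% of them, 0.732% of the 2049) and 7 lower (13.5%). Of the 70 lower genes 63 were measured, 16 were lower (25.4%, 1.57% of the 1016) and 12 higher. Fos measured 43.7 FPKM with PBS and 18.8 FPKM with DEX in PDGFRα+ cells, Fosb 0.951 and 1.88 FPKM, and Egr1 9.36 and 9.45 FPKM. Cxcl1 measured 32.7 and 24.6 FPKM and Trib3 16.7 and 6.11 FPKM. Ptgs2 (15.4 and 123 FPKM), Hes1 (1.68 and 22.6 FPKM) and Nr4a1 (3.01 and 9.28 FPKM) were past 2-fold higher in both tables. In the second column labelled PDGFRα+ DEX, however, Ptgs2 was at 14.7, Hes1 at 2.13 and Nr4a1 at 4.08 FPKM, nearer to PBS. The sheet titles give the PDGFRα+ PBS library the number of that second column and not of the DEX column beside it. Whether the cell types differ in these genes could not be tested with 1 library per group.

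**Figure D5:**
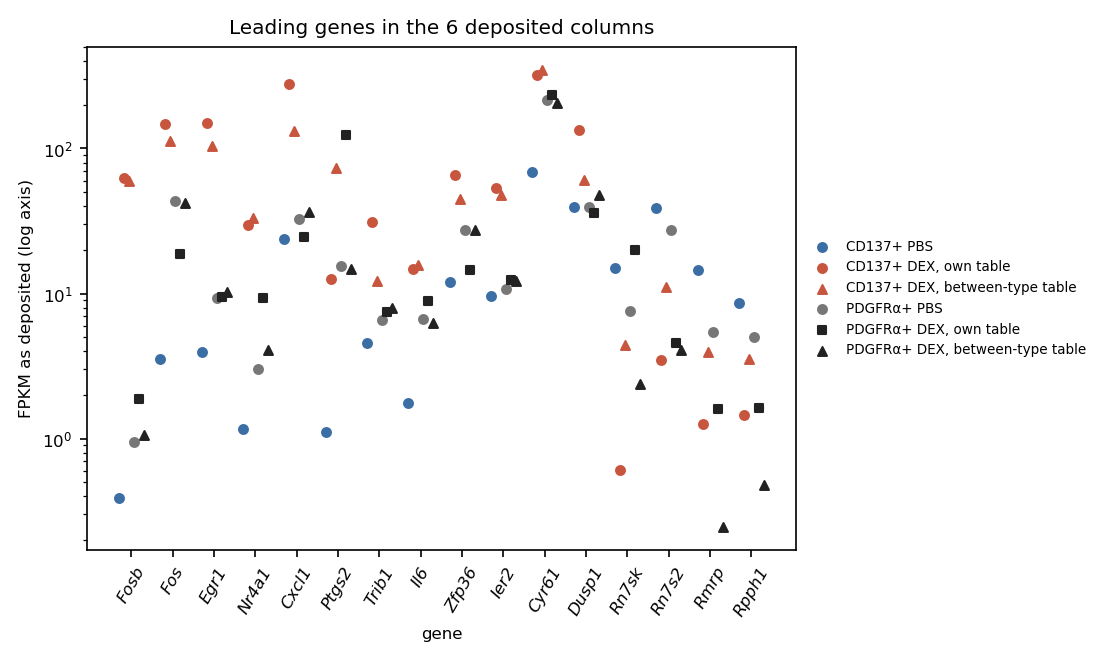
FPKM on a log axis for 16 leading genes in the 6 deposited columns: CD137+ PBS (blue circle), the DEX-labelled column of the same table (red circle) and of the between-cell-type table (red triangle), PDGFRα+ PBS (grey circle) and the PDGFRα+ DEX columns of both tables (black square and triangle). Fosb is at 59.7 to 62.8 FPKM in the columns labelled CD137+ DEX and at 0.392 to 1.88 FPKM in the other 4.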

How the data were processed

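Per the labels' protocols, Trizol RNA went into Illumina TruSeq libraries. Per the submitters' processing notes, the tools were Cufflinks and Cuffdiff (versions not stated) on mm10. Aligner, annotation and strand setting: not given in the sources used here. Per the file headers, 3 tables were deposited by the authors, each with 2 columns of FPKM. Every column was mapped to a sample by name, and 0 were left over. The deposited ratios, p-values and q-values were not used.

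FPKM scales a library to its total, so a few abundant transcripts can lower the rest. Depth is unknown: among 1852 genes under 1 FPKM at most 4 shared a ratio to 3 decimals, so no read steps could be read off. No gene was listed with a higher value under 0.397 FPKM, and 22 genes were listed at 0 with PBS and 33 with DEX, which may be failed estimates.

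A gene was called measured where its higher library reached 1 FPKM, and counted at 2-fold or more on log2(FPKM + 1). With 1 library per group no test was made. Precision is limited by that number, and differences measure only the spread between these libraries. The members, the 43 gene lists, the 11 marker lists and the rules were chosen with earlier results of these data known. Named genes were a fixed set (Nr3c1, Fkbp5, Tsc22d3, Per1, Klf9, Zbtb16, Dusp1, Sgk1, Tead1, Tnfrsf9, Pdgfra, Pparg, Cebpa, Adipoq, Ucp1, Tmem26, Tbx1), the 15 highest and 15 lowest genes reaching 5 FPKM (predicted genes left out), and in each list the 6 largest differences, members past 2-fold and the 2 most abundant members. Other list members were chosen after their values were seen, to show the spread of a pathway. Klf9 and Zbtb16 measured 51.99 and 61.6 and 20.9 and 19.2 FPKM.

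Identifiers were looked up in GENCODE M21 on GRCm38, and 99.8% were found. For 11 symbols with several identifiers 1 was used. Promoters came from RefSeq, taking the start closest to the locus. Alternatives were other pseudocounts, minimums, thresholds, scalings and the second DEX column. Python 3.11.15, numpy 2.4.6, pandas 2.3.3 and matplotlib 3.10.9 were used.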

Additional observations from a re-analysis of the deposited data

Results flagged for a closer look

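For 5 leading genes the PDGFRα+ libraries stood at least 2-fold apart in the opposite direction to the CD137+ libraries. The AP-1 subunit Fos had a log2 difference of 5.03 in CD137+ cells and -1.17 in PDGFRα+ cells (43.7 FPKM with PBS and 18.8 FPKM with DEX). The stress pseudokinase Trib3 had 1.82 and -1.32. Among noncoding genes lower in CD137+ cells and higher in PDGFRα+ cells, Rn7sk had -3.31 and 1.30, Snhg4 -1.73 and 1.94, and Gt(ROSA)26Sor -1.26 and 1.51. Each value compares 1 library with 1 other, and the difference between the cell types was not tested. In the second column labelled PDGFRα+ DEX, Fos measured 42.1, Trib3 13.7, Rn7sk 2.37, Snhg4 4.08 and Gt(ROSA)26Sor 5.72 FPKM. With PDGFRα+ PBS Trib3 measured 16.7, Rn7sk 7.57, Snhg4 3.51 and Gt(ROSA)26Sor 4.32 FPKM. By the sheet titles that second column, not the DEX column used for these differences, has the library number of PDGFRα+ PBS.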

How the results depend on the processing

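No paired analysis was possible because each group has 1 library, and no replicate could be left out for the same reason. The 58 higher and 70 lower genes became 178 and 197 with a pseudocount of 0.1 FPKM, and 30 and 16 with a pseudocount of 5 FPKM. With a minimum of 10 FPKM they were 36 and 19, at 1.5-fold 370 and 326, and at 4-fold 14 and 5. With the second column labelled CD137+ DEX, set across tables, they were 592 and 872. Without a minimum and under the 3 rescalings (same median, same upper quartile, same total without the highest genes) the counts stayed within 1.5 times, at 50 to 58 higher and 70 to 76 lower. Rescaling by the median multiplied the DEX column by 0.962, and it turned medians of lists near 0, namely mRNA decay, matrix proteases, TEAD and YAP and antioxidant genes, but none beyond 0.3 on the log2 scale of the 52 with a median. The call at 0.3 or more on the log2 scale was used for medians. Beyond that value the medians of 2 lists turned with the second column: interferon-stimulated genes to -2.46 and mesothelial and epithelial markers to 1.37. Smaller medians turned there too, among them those of MHC class I genes (0.23 to -1.69), mural markers (-0.28 to 0.70) and Schwann and neural markers (0.16 to -0.94). Further ones were those of NF-kB genes (0.07 to -0.48), histone genes (0.27 to -0.10) and Hox genes (-0.07 to 0.29), and this is not a full list. Besides those first 2, 44 of 52 list medians moved with that column and 6 did not. With a pseudocount of 5 FPKM 11 moved, among them those of immediate early factors (0.74), chemokines (0.45), cell division genes (0.37) and the endothelial, keratin and muscle markers, and with 0.1 FPKM 7 moved. Without a minimum the keratin median was -0.42. The 30 leading genes kept their directions under the alternatives run. They were picked for their size here, so other pseudocounts, minimums and these small rescalings could not turn them. Only the second column could have, and it was set against the same PBS library. The cause of these shifts was not tested. FPKM without depth gives no counting error, so genes near 1 FPKM are the least certain.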
